A study of Mus musculus with 8 samples.

Results

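Messenger RNA of 9 genes for surface molecules of leukocyte adhesion and migration was followed in lung neutrophils of mice with and without Streptococcus pneumoniae pneumonia. The genes were chosen by symbol and comprised Selplg, Cd44, Cd47, Icam1, Icam2, F11r, Vcam1, Selp and Sele. Of the 24625 rows of the array table, 8 matched a member and none matched Vcam1, which is not described further. Icam1 and Sele rose more than 2-fold in pneumonia, and Cd44 and Cd47 rose by smaller amounts. Icam2 fell 2.46-fold and F11r 1.89-fold. The differences of Selplg and Selp did not pass the test.

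The 8 samples were neutrophils from the lungs of wild type mice aged 6 to 12 weeks, 4 from mice given phosphate-buffered saline (PBS) and 4 from mice given S. pneumoniae (SP). PBS or bacteria were placed in the left lung by way of the trachea, in a volume of 2.3 µl for each g of mouse, and cells were prepared after 24 h. Cells were pulled from lung cell suspensions with an antibody to Ly6G, a surface protein of mouse neutrophils, and magnetic beads. Each sample was read on 1 Affymetrix Mouse Gene 1.1 ST array, which gives a log2 signal per gene relative to the other genes of that array. Per the methods, the purity of the isolated cells was judged on stained cells of the pneumonia samples and was high. The few other cells there mostly looked like alveolar macrophages. The PBS preparations have no such measure, though the methods state that Ly6G mRNA was high in all samples. By the study's own description each sample came from a single mouse, so p-values measure the spread between mice, and with 4 arrays a group the precision is limited.

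A neutrophil leaves the blood in steps. Selectins on the vessel wall (Sele, E-selectin, and Selp, P-selectin) catch carbohydrate-bearing ligands of the leukocyte, chiefly P-selectin glycoprotein ligand (Selplg) and CD44, and the cell rolls. Activated β2 integrins of the leukocyte then grip ICAM-1 and ICAM-2 (Icam1, Icam2), and junctional molecules such as JAM-A (F11r) line the path between endothelial cells. CD47 is a widely expressed integrin partner that is read by SIRPα (Sirpa) on phagocytes. Endothelial cells make E-selectin, ICAM-2 and JAM-A, platelets and endothelial cells store P-selectin, and neutrophils themselves carry PSGL-1, CD44, CD47 and, after stimulation, ICAM-1.

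Marker genes of several other lung cell types differed between the groups and are given here once, because several of the adhesion genes are made by such cells. The mean log2 signal of 11 neutrophil markers was 12.79 to 13.17 in PBS samples and 12.56 to 13.14 in SP samples, with 0 called higher and 3 called lower. Of these markers Retnlg differed by -0.47 and was called, and Lcn2 (0.22) and the receptor Csf3r (-0.17) were not. The mean of 13 endothelial markers was 10.08 to 11.04 in PBS samples and 8.41 to 9.63 in SP samples, and 12 of the 13 were lower, all but Vwf, whose difference of 0.05 changed sign with single samples left out. Cdh5, the cadherin of endothelial junctions, went from 11.91 to 10.92 and Calcrl from 12.30 to 10.67 in the group means. Epithelial markers were lower for 5 of 7 of alveolar type 1, 7 of 9 of alveolar type 2, 8 of 8 of ciliated and 4 of 4 of club cells, with list medians of -1.75, -1.07, -2.75 and -2.29. Mesothelial markers were lower for 4 of 4 (median -3.12) and B cell markers for 6 of 7 (median -1.63). Platelet markers were lower for 1 of 8 (mean 5.96 to 6.24 against 5.80 to 6.08), and monocyte and macrophage markers were higher for 4 of 9 (8.18 to 9.13 against 8.56 to 9.83). Markers of alveolar macrophages were lower for 4 of 8 and higher for 1 (median -1.06). Fibroblast markers were lower for 1 of 8 (median -0.08) and pericyte and smooth muscle markers for 2 of 7 (median -0.44). T cell markers were higher for 1 of 7 (median 0.41). Among all rows, 22.6% were called lower and 21.5% higher. PBS replicate 2 had the highest endothelial mean and SP replicate 3 the lowest. In such bulk samples fewer cells of a type and less RNA per cell cannot be told apart. Signal of 6 Y-linked genes, used as a measure of background, ranged from 4.33 to 5.44 in PBS samples and from 4.47 to 6.20 in SP samples. Of these 6 genes 2 were themselves called higher in SP samples, with a median difference of 0.19 over the list. Their use as background takes the mice to be female. The methods state that female mice were bought, that colonies were bred and that sex-matched mice were studied.

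Differences are given as the SP mean minus the PBS mean on the log2 scale, where 1 is 2-fold, with limma's adjusted p over all rows. A gene was called where limma's adjusted p did not exceed 0.05. With that threshold 6 of the 8 members were called, 4 higher and 2 lower, beside 44.1% of all rows (21.5% higher and 22.6% lower). At 2-fold as well, 3 of the 8 were called, Icam1, Sele and Icam2, beside 17.6% of all rows. The 4 values of a group lay wholly apart from those of the other for 6 of 8 members and for 49% of all rows. The median difference was 0.46 over the members and 0.10 over all rows.

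**Figure D1:**
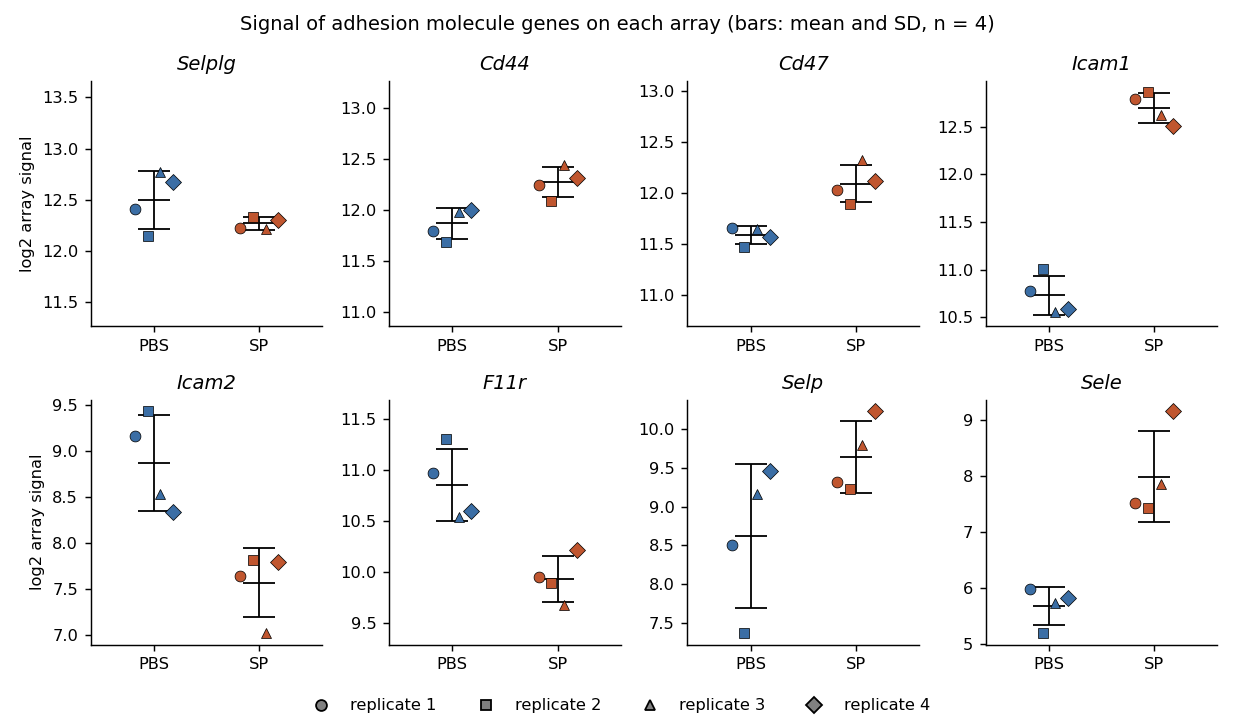
Log2 signal of the 8 members on each array (vertical axis), with 4 PBS and 4 SP samples a gene as points and group means with SD as bars. The groups lay apart for Cd44, Cd47, Icam1, Icam2, F11r and Sele and overlapped for Selplg and Selp, and Sele in PBS samples, at 5.20 to 5.99, overlapped the range of Y-linked genes.

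**Figure D2:**
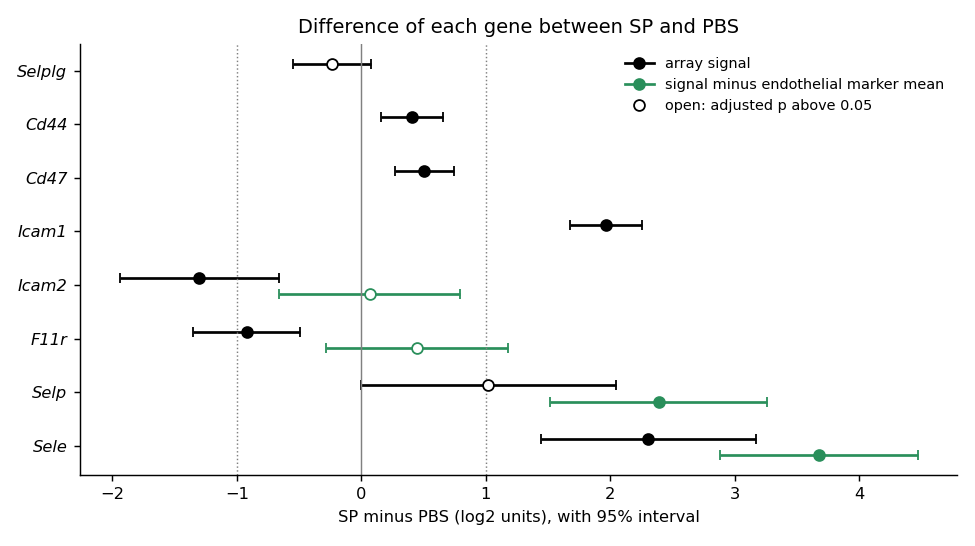
Difference between SP and PBS means on the log2 scale (horizontal axis) for each member, with 95% confidence intervals from limma and a line at 0. Black points show array signal. Green points show Icam2, F11r, Selp and Sele after subtracting the endothelial marker mean. Open points were not called, and dotted lines mark a 2-fold difference. Among the black points Sele at 2.30 and Icam1 at 1.96 lay farthest to the right and Icam2 at -1.30 farthest to the left. The black intervals of Selplg and Selp took in 0. Green points of Sele and Selp stood at 3.67 and 2.39.

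Among the molecules that neutrophils present to selectins, Selplg, the main scaffold for P-selectin binding, had a log2 signal of 12.41, 12.14, 12.77 and 12.67 in PBS replicates 1 to 4 and of 12.22, 12.33, 12.21 and 12.30 in SP replicates 1 to 4. The SP samples lay close together inside the wider PBS range. The difference of -0.23 (SE 0.14, 95% interval -0.55 to 0.08) was not called (limma, adjusted p = 0.184).  The call depended on PBS replicate 2, the lowest of its group. Without it the difference was -0.35 and passed the test (limma, adjusted p = 0.0334).

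Of 14 genes that build or carry selectin ligands, 4 were called higher and 3 lower, with a median difference of 0.14, near the shares of all rows (21.5% and 22.6%). Tpst1, which sulfates tyrosines of the PSGL-1 tip, rose from 7.44 ± 0.29 to 9.23 ± 0.16 (SD, n = 4 each), or 3.46-fold (limma, adjusted p = 5.64e-05). B4galt1, a galactosyltransferase that builds the carbohydrate chain, rose 2.66-fold (difference 1.41, limma, adjusted p = 0.00317), with SP replicate 3 lowest of its group at 10.84 but above every PBS sample. Glg1, a sialoglycoprotein that binds E-selectin, fell by 0.50 on the log2 scale (limma, adjusted p = 0.00152). Fut7, which adds the fucose that selectins require, differed by 0.15 and was not called (limma, adjusted p = 0.383). Its SP values of 5.62 to 5.88 lay within the range of the Y-linked genes, so a change could not be read from it.

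Adam17, a sheddase that clips adhesion molecules and other proteins from the cell surface, rose from 9.90 ± 0.17 to 11.51 ± 0.16 (SD, n = 4 each), 3.06-fold (limma, adjusted p = 2.52e-05). Rhbdf2, an iRhom that brings Adam17 to the surface in blood cells, rose 2.75-fold (limma, adjusted p = 0.000493), and its relative Rhbdf1 fell by 1.41 on the log2 scale. Of the 6 genes of ectodomain shedding these were the 3 called, 2 higher and 1 lower, beside 21.5% and 22.6% of all rows.

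Cd44, the hyaluronan receptor that also serves as an E-selectin ligand, had a log2 signal of 11.80, 11.68, 11.98 and 12.00 in PBS samples and of 12.24, 12.09, 12.44 and 12.31 in SP samples. Every SP value lay above every PBS value, with a gap of under 0.1 between SP replicate 2 and PBS replicate 4. The rise of 0.41 (SE 0.11) was 1.32-fold (limma, adjusted p = 0.0165). It missed the threshold without PBS replicate 1, with a difference of 0.38 (limma, adjusted p = 0.0504).

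Of 15 genes of hyaluronan handling and CD44 partners, 6 were called higher and 1 lower (21.5% and 22.6% of all rows), and the median was 0.12. Vcan, the hyaluronan-binding proteoglycan versican, rose from 6.42 ± 0.27 to 9.16 ± 0.47 (SD, n = 4 each), 6.68-fold (limma, adjusted p = 6.52e-05). Versican is also abundant in inflammatory monocytes, and 4 of 9 monocyte and macrophage markers were called higher, as given above. Of 8 alveolar macrophage markers, 4 were called lower and 1 higher. The part of such cells in the Vcan rise was not tested. Cemip, which breaks down hyaluronan, was higher by 1.25, from PBS values of 4.49 to 4.64 that lay within the range of the Y-linked genes, and the hyaluronidase Hyal1 lower (difference -1.13), but the call of Cemip was lost without any of 6 samples, all but SP replicates 2 and 3 (limma, adjusted p up to 0.0942), and that of Hyal1 without any of 5, all but PBS replicates 3 and 4 and SP replicate 2 (limma, adjusted p up to 0.109). Msn and Ezr, which tie CD44 to the actin cortex, rose by 0.42 and 0.35, and Ezr lost its call without PBS replicate 1 or 4 (limma, adjusted p = 0.0657 and 0.0542).

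Cd47 had a log2 signal of 11.66, 11.47, 11.65 and 11.57 in PBS samples and of 12.03, 11.89, 12.33 and 12.12 in SP samples. All SP samples stood above all PBS samples, SP replicate 3 highest. The rise of 0.51 (SE 0.10) was 1.42-fold (limma, adjusted p = 0.00517). On another quantile normalization of the table the rises of Cd44 and Cd47 were 0.16 and 0.26 and neither was called (limma, adjusted p = 0.171 and 0.0546).

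Of 7 genes that bind CD47, modify it or act after it, 3 were called higher and none lower (21.5% and 22.6% of all rows). Ptpn6, the phosphatase SHP-1 that acts below SIRPα, rose 1.98-fold (limma, adjusted p = 0.0159), Ptpn11, its relative SHP-2, rose by 0.30, and Qpctl, which modifies the end of CD47 that SIRPα binds, rose by 0.27. The call of Ptpn11 was lost without PBS replicate 1 or 4 and that of Qpctl without any sample but SP replicate 3 (limma, adjusted p up to 0.0540 and 0.110). Sirpa itself had PBS values of 10.86 to 11.71 and SP values of 11.21 to 11.99. The difference of 0.33 was not called (limma, adjusted p = 0.237).

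Icam1, the ligand of β2 integrins that both endothelium and stimulated neutrophils carry, had a log2 signal of 10.78, 11.0031, 10.56 and 10.58 in PBS samples and of 12.79, 12.86, 12.62 and 12.51 in SP samples. All 4 SP values stood more than 1 log2 unit above the highest PBS value. The rise of 1.96 (SE 0.13) was 3.90-fold, with a 95% interval of 3.20-fold to 4.76-fold (limma, adjusted p = 1.53e-05). It was the smallest adjusted p among the members and the call held under all 18 alternatives run. Its direction was opposite to that of 12 of the 13 endothelial markers on the same arrays. For deviations from the group means over the 8 arrays, Pearson's r of Icam1 was 0.503 with the endothelial mean and -0.764 with the neutrophil mean. The part of other cells in the Icam1 rise was not tested. By the study's flow cytometry, ICAM-1 protein was also higher on lung neutrophils of mice with pneumonia.

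The 250 bases before the RefSeq start of Icam1, Sele and Selp (GRCm38.p6) are shown because these genes are textbook targets of inflammatory transcription factors, and because their differences were the largest positive ones among the members. Capitals mark matches, on either strand, to GGGNNNNNCC and GGANNNTCC, patterns of the NF-κB type, to TGACTCA, the AP-1 pattern, and to TATAAA. These patterns were chosen with the sequences in view. The sequence of each gene runs 5′ to 3′ and ends at the base before the start. For Icam1 and Selp that start opens the gene's RefSeq span. For Sele it lies inside the span, which opens at 164039614.
Icam1 (chr9:21015690-21015939, + strand): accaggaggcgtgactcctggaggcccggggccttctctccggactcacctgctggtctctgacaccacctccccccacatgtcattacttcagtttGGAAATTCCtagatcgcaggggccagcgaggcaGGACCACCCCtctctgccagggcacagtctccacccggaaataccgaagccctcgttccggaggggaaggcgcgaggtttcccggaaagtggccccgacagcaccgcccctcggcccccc
Sele (chr1:164047984-164048233, + strand): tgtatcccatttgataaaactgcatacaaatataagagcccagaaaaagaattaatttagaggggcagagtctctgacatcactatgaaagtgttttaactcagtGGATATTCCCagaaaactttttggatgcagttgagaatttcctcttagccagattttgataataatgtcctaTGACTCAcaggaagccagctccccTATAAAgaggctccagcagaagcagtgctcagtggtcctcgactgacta
Selp (chr1:164115014-164115263, + strand): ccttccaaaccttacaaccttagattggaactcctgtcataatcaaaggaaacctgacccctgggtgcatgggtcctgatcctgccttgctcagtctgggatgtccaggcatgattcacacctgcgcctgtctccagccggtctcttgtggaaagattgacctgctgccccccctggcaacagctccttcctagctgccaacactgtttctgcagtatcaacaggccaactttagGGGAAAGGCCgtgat

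RefSeq windows matched 6 of the 9 members: Icam1, Sele, Selp, F11r, Cd44 and Cd47. GGANNNTCC stood in Icam1, as GGAAATTCC from 153 to 145 bases before the start, and in Sele, as GGATATTCC from 145 to 137, where it overlaps a GGGNNNNNCC match. It was in 7.27% of the 32851 windows of the same length and in none of the other 4 members. As the patterns were chosen with the sequences in view, this share is no test of the members. GGGNNNNNCC was in 5 of the 6 members, all but Cd47, and in 45.8% of all windows, so its presence sets the members little apart. TGACTCA stood in Sele and, on the reverse strand, in F11r (4.46% of windows), and TATAAA in Sele, from 49 to 44 bases before the start (12.4%). A match describes the letters of the window and shows no binding.

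In gene order on mouse chromosome 9, Icam1 is followed by Icam4 and Icam5, further ICAM genes known from red cells and from neurons. Icam4 had PBS values of 4.90 to 5.26 and SP values of 5.92 to 6.63 and rose by 1.13 (limma, adjusted p = 0.00071). Icam5 had PBS values of 4.52 to 4.69 and SP values of 4.81 to 5.18 and rose by 0.44 (limma, adjusted p = 0.00724). In both groups these values ran into the range of the Y-linked genes, so their folds are not exact.

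The leukocyte integrins that bind ICAMs and VCAM-1 are pairs of an α and a β chain. Itgal, the α chain of LFA-1, had PBS values of 10.83 to 11.83 and SP values of 10.88 to 11.40, and the difference of -0.23 was not called (limma, adjusted p = 0.410). Itgb2, the β chain shared by LFA-1 and Mac-1, differed by 0.08 and was not called (limma, adjusted p = 0.652). Itgam, the α chain of Mac-1, was called higher by 0.32 (limma, adjusted p = 0.0437), with overlapping groups and a call that was lost without any sample but PBS replicate 3 (limma, adjusted p up to 0.109). Its protein, CD11b, had a higher mean in pneumonia by the study's flow cytometry, without a mark of significance there. The study's text counts it among the raised proteins. Itgax, the α chain of a further β2 integrin that macrophages and dendritic cells carry in quantity, rose 2.39-fold. In the study's flow cytometry its protein, CD11c, was also higher on lung neutrophils of mice with pneumonia. Itgb7, the β7 chain of lymphocyte integrins, was called higher by 1.12 (limma, adjusted p = 0.0434), with overlapping groups, and lost its call without any sample but PBS replicate 1 or SP replicate 3 (limma, adjusted p up to 0.107). Itgb1, the β1 chain that pairs with α4, rose by 0.69 (limma, adjusted p = 0.0139). Itga4, the α4 chain that binds VCAM-1, was lower by difference -0.81 (limma, adjusted p = 0.0394) and lost its call without any sample but PBS replicate 2 or SP replicate 2 (limma, adjusted p up to 0.101). In all, 4 of the 9 integrin genes were called higher and 1 lower (21.5% and 22.6% of all rows), with a median of 0.29.

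Among 19 genes of integrin activation and adhesion signalling, 3 were called higher and 1 lower, beside 21.5% and 22.6% of all rows. Rasgrp2, the exchange factor CalDAG-GEFI that switches on Rap1 ahead of integrin activation, fell from 10.24 ± 0.22 to 8.34 ± 0.20 (SD, n = 4 each), 3.72-fold lower (limma, adjusted p = 2.88e-05). Vav1, an exchange factor for Rac, rose 3.15-fold. The tyrosine kinases Btk and Syk rose by 0.91 and 0.79, the call of Btk being lost without PBS replicate 1, SP replicate 1 or SP replicate 2 (limma, adjusted p up to 0.0794). The other 15 genes were not called.

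Icam2, the ICAM that endothelial cells hold at rest, had a log2 signal of 9.16, 9.43, 8.53 and 8.33 in PBS samples and of 7.63, 7.82, 7.01 and 7.79 in SP samples. PBS replicates 1 and 2 were the highest and SP replicate 3 the lowest, and the groups did not overlap. The fall of 1.30 (SE 0.28) was 2.46-fold (limma, adjusted p = 0.00624), opposite in direction to Icam1. With array weights it was called at a difference of -0.97, short of 2-fold. F11r, the junctional adhesion molecule JAM-A of endothelium, epithelium, platelets and other cells, had 10.97, 11.30, 10.54 and 10.60 in PBS samples and 9.95, 9.89, 9.68 and 10.22 in SP samples. Here too the groups lay apart, with PBS replicate 2 highest and SP replicate 3 lowest. The fall of 0.92 (SE 0.19) was 1.89-fold (limma, adjusted p = 0.00493), and it missed the threshold with arrays centred on the neutrophil markers (difference -0.71, limma, adjusted p = 0.0627).

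Both genes ran closely with the endothelial and the alveolar type 1 markers from array to array. Over the 8 arrays, which share their groups, Pearson's r with the endothelial mean was 0.987 for Icam2 and 0.978 for F11r, and 0.954 and 0.916 for deviations from the group means. With the alveolar type 1 mean r was 0.979 and 0.982, and 0.921 and 0.924 for the deviations. With the endothelial mean subtracted from each array, Icam2 stood at -1.55, -1.61, -1.64 and -1.75 in PBS samples and at -1.51, -1.53, -1.40 and -1.84 in SP samples, and the groups overlapped. The difference on this relative scale was 0.07 (95% interval -0.66 to 0.79, limma, adjusted p = 0.862). F11r on the same scale was 0.26, 0.26, 0.38 and 0.52 in PBS samples and 0.81, 0.55, 1.26 and 0.59 in SP samples. Here all SP values stood above all PBS values, and the difference of 0.45 was not called (limma, adjusted p = 0.247). On this scale limma's SE was 0.36 for Icam2 and 0.37 for F11r. The SD in PBS and SP samples was 0.09 and 0.19 for Icam2 and 0.12 and 0.33 for F11r. Each SE exceeded the gene's own SDs, so the interval and the missing calls do not measure the spread of Icam2 or F11r. The part of endothelial or epithelial RNA in the falls of Icam2 and F11r was not tested beyond these values.

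P-selectin (Selp) had a log2 signal of 8.50, 7.36, 9.16 and 9.47 in PBS samples and of 9.32, 9.23, 9.79 and 10.24 in SP samples. PBS replicate 2 lay far below the rest, and PBS replicate 4 lay above SP replicates 1 and 2. The difference of 1.02 (SE 0.45, 95% interval -0.0034 to 2.04) was not called (limma, adjusted p = 0.0920). Without PBS replicate 2 it was 0.60 (limma, adjusted p = 0.157), so that sample carried much of it. With array weights it was 0.46 (limma, adjusted p = 0.303). It was called at 1.30 with arrays centred on their median, at 1.23 with arrays centred on neutrophil markers and at 1.02 with a replicate block (limma, adjusted p = 0.0233, 0.0211 and 0.0187). Among platelet genes, Pf4 had 7.70 to 8.36 in PBS samples and 7.15 to 9.02 in SP samples. Gp1bb had 6.95 to 7.62 and 5.89 to 7.87, and the receptor chain Itga2b had 5.95 to 6.74 and 5.68 to 6.04. Pearson's r of Selp with the platelet marker mean was -0.563 over the 8 arrays and -0.320 for deviations from the group means. The part of platelets in the Selp signal was not tested.

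E-selectin (Sele), which endothelium makes upon cytokine stimulation, had a log2 signal of 5.99, 5.20, 5.74 and 5.83 in PBS samples and of 7.52, 7.43, 7.86 and 9.17 in SP samples. All SP samples stood above all PBS samples, and SP replicate 4 stood above the other 3 by more than 1 log2 unit. The rise of 2.30 (SE 0.38, 95% interval 1.44 to 3.17) was 4.94-fold (limma, adjusted p = 0.00159). Without SP replicate 4 it was 1.91. PBS values lay within 1 log2 unit of the highest Y-linked signal of their group, so the fold is not exact.

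Relative to the endothelial mean, Selp was -2.21, -3.68, -1.0 and -0.62 in PBS samples and 0.18, -0.12, 1.38 and 0.61 in SP samples. Sele was -4.72, -5.84, -4.43 and -4.26 in PBS samples and -1.62, -1.92, -0.56 and -0.46 in SP samples. For both selectins every SP value then lay above every PBS value. The differences on this scale were 2.39 for Selp and 3.67 for Sele (limma, adjusted p = 9.52e-06 and 2.37e-11). On that scale 80.9% of all rows were called higher in SP samples, since the subtracted mean was itself lower there, so nothing is read from these calls.

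**Figure D3:**
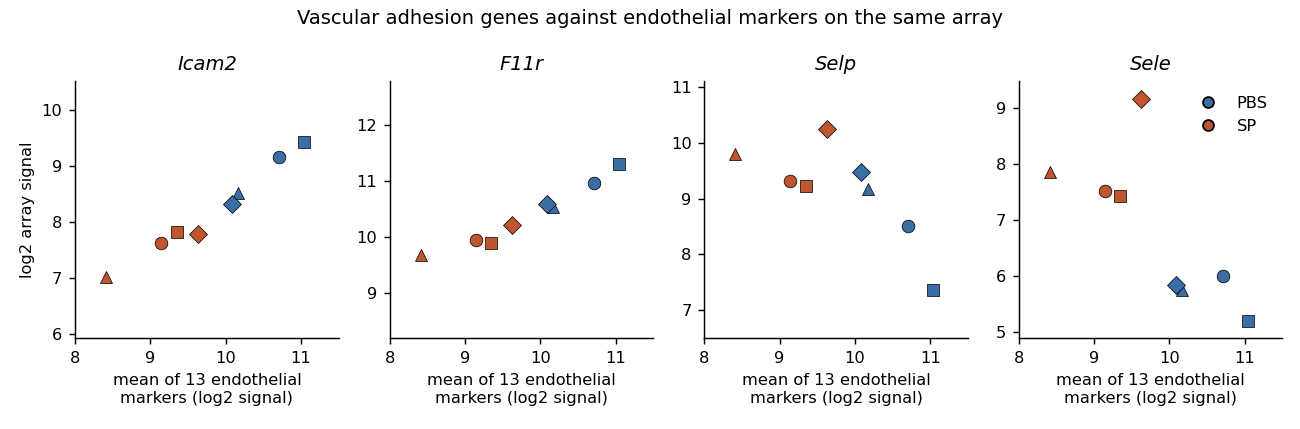
Log2 signal of Icam2, F11r, Selp and Sele on each array (vertical axes) against the mean log2 signal of 13 endothelial markers on the same array (horizontal axes), PBS and SP samples in separate colours. Icam2 and F11r rise along with the marker mean over all 8 arrays, whereas SP samples have low marker means and high Sele.

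PBS replicate 2 was at an end of its group for all 8 members, lowest for Selplg, Cd44, Cd47, Selp and Sele and highest for Icam1, Icam2 and F11r. Its list mean was the lowest of the PBS samples for neutrophil markers and the highest for endothelial markers. Within groups, deviations of Cd44 and Cd47 ran with those of the neutrophil mean (r = 0.946 and 0.906 over the 8 arrays), whereas between the groups Cd44 and Cd47 rose and the neutrophil mean did not. SP replicate 3, which had the lowest endothelial mean, was lowest of its group for Icam2, F11r and Selplg and highest for Cd44 and Cd47. Without PBS replicate 2 or SP replicate 3, the 6 calls named above held.

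Of 11 genes of junctions and transmigration, 6 were called lower, 5 of them at 2-fold, and none higher, with a median of -0.63. Of all rows 22.6% were called lower and 21.5% higher. Cd99l2, which neutrophils use in crossing the vessel wall, fell from 8.84 ± 0.22 to 6.84 ± 0.86 (SD, n = 4 each), Cxadr, a junctional relative of JAM-A, fell by 1.92 and the scaffold Tjp1 fell by 1.81 on the log2 scale. Pecam1, which both leukocytes and endothelium carry, differed by -0.35 and was not called (limma, adjusted p = 0.275). Endothelial, epithelial and mesothelial markers were lower in the same samples, as given above, and their part in the junction genes was not tested.

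Of 7 other vascular adhesion genes, 2 were called higher and 2 lower (21.5% and 22.6% of all rows), and their median was 0.15 while their mean was -0.39. Chst4, a sulfotransferase that makes selectin ligands in high endothelial venules, went from 8.72, 7.80, 8.79 and 8.09 in PBS samples to 4.93, 5.06, 5.01 and 5.15 in SP samples. SP samples thus lay at the level of Y-linked genes and every PBS sample lay well above it (difference -3.32, limma, adjusted p = 1.75e-05). This was the largest difference among the 88 pathway genes with a row. In PBS replicates 1 to 4 the mesothelial marker mean was 10.26, 9.63, 10.25 and 9.70. The endothelial mean there was 10.71, 11.04, 10.17 and 10.08. Both means were lower in every SP sample, and the part of these or other cells in the Chst4 signal was not tested. Of those 88 genes in 8 lists, 24 were called higher and 15 lower, beside 21.5% and 22.6% of all rows.

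**Figure D4:**
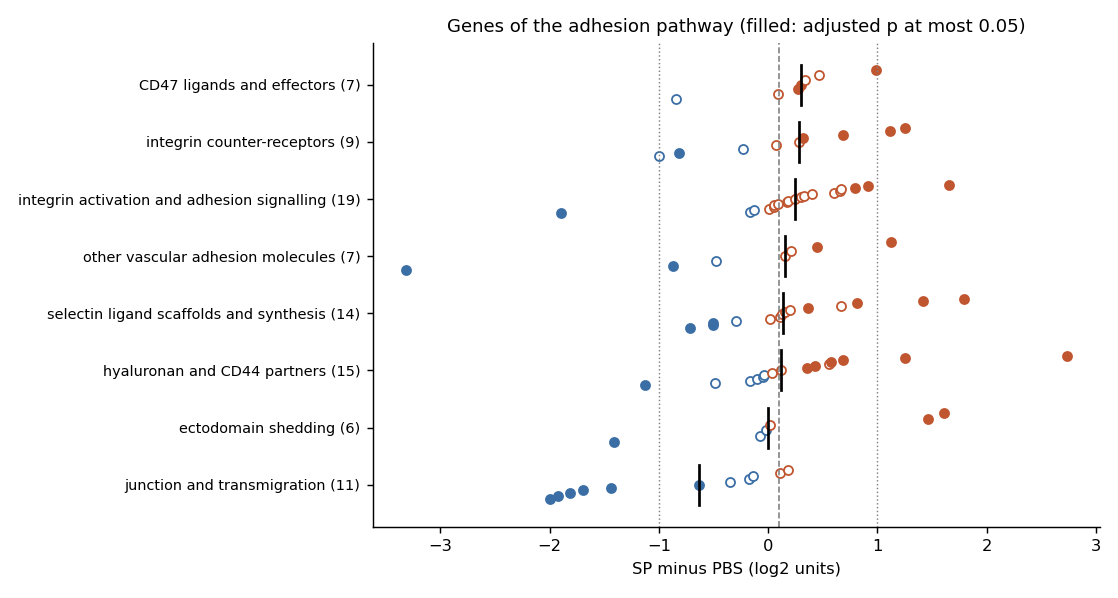
Difference between SP and PBS means on the log2 scale (horizontal axis) for every gene of the 8 pathway lists (rows), filled where called, with a bar at each list's median, a dashed line at the median of all rows and dotted lines at a 2-fold difference. Called junction genes lie left of 0, and Vcan and Chst4 stand at the outer ends.

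The rows most like each member over the 8 arrays, by Pearson's r of log2 signal, were named as a description, since the same 8 arrays and their groups underlie all of them. Icam1 ran with Ski (r = 0.999), Ifi208 (0.998) and Tor3a (0.997), and Sele with Rgs16 (0.991), Rxfp4 (0.986) and Mmp13 (0.986). Icam2 ran with Myzap (0.998), Mylk (0.996) and Adgrf5 (0.995), and F11r with Cab39l (0.998), Zfp280d (0.997) and Denn2b (0.996). Cd44 ran with Vmn1r25, Kap and Dusp16 (each 0.990), and Cd47 with Alppl2 (0.995), Tas2r121 (0.993) and Gas7 (0.992). Selplg ran with Klhl2 (0.996), Ggt5 (0.989) and Tmem43 (0.985). The rows nearest to Selp were less close, namely Olfr875 (0.974), Mir379 (0.971) and 3930402G23Rik (0.964).

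**Figure D5:**
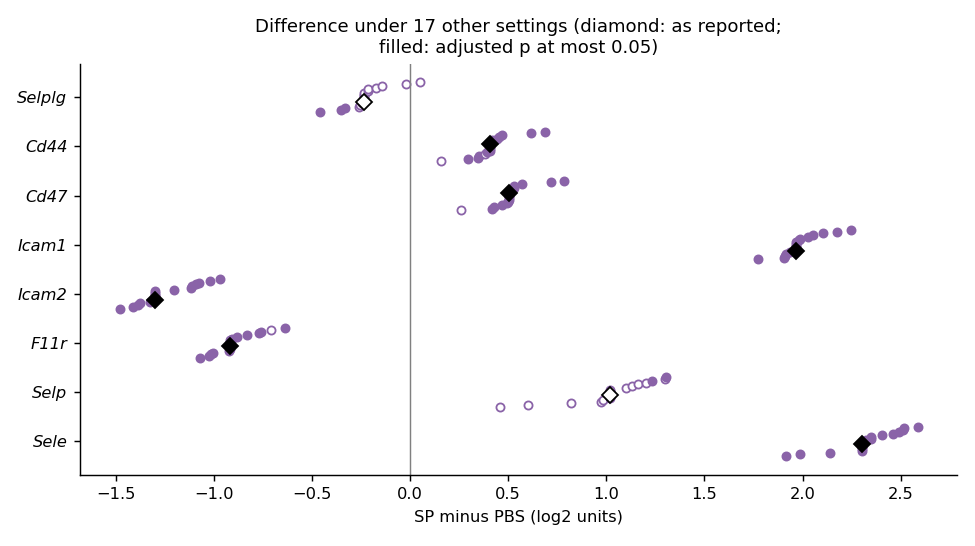
Difference between SP and PBS means on the log2 scale (horizontal axis) for each member under the main setting and 17 others, with filled points where limma or the methods' test called the gene. Points of Icam1, Sele, Icam2, F11r, Cd44, Cd47 and Selp keep to 1 side of 0, and those of Selplg cross it with arrays centred on their median.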

How the data were processed

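Messenger RNA of 4 PBS and 4 SP samples of lung neutrophils was measured on Affymetrix Mouse Gene 1.1 ST arrays, and samples were grouped by their titles. The deposited log2 intensities are those the authors obtained, as their methods state, by robust multi-array averaging (background correction, adjustment for probe sequence and GC content, quantile normalization, then median polish), with custom assignment of probesets to genes (the submitters' processing notes name Affymetrix Expression Console, Partek and RMA). Values are therefore relative within an array, and array medians still differed (6.06 to 6.20 for PBS and 5.78 to 5.91 for SP), so differences were also computed on re-centred arrays.

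Row accessions received symbols from RefSeq genes of GRCm38.p6 (80.9% of 24625 rows). Where a symbol had several rows, the one with the highest mean was used. The values carry no genome build. SP was compared with PBS by limma 3.58.1 in R 4.3.3 (lmFit, eBayes, two-sided, no covariate, Benjamini-Hochberg over all rows), after tests on simulated data. The 2-fold threshold was 1 log2 unit. The same fit was run after subtracting the endothelial marker mean from each array. Promoter windows came from RefSeq. Figures used Python 3.11.15 and matplotlib 3.10.9.

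Members, gene lists and tests were chosen with earlier results of these data known. Genes named were the members, up to 3 genes of each pathway list with the largest differences among those called at 2-fold, 8 direct partners, a few markers, and the 3 rows most like each member. One further gene of this rule is not reported here. Genes of the lists outside this rule (Fut7, Msn, Ezr, Ptpn6, Ptpn11, Qpctl, Icam5, Btk, Syk and Vwf) were named after their values were seen. Alternatives were the methods' one-way ANOVA, a robust prior with trend, arrays centred on their median or on neutrophil markers, array weights, a replicate block, another quantile normalization, dim rows left out, 1 row per symbol, limma treat against 1 log2 unit and each sample left out. Samples with the same number did not deviate together (r from -0.27 to 0.35).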

Additional observations from a re-analysis of the deposited data

Results flagged for a closer look

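Among 104 groups of 4 samples tested for a sample apart from the rest, 2 held such a sample, and chance flags about 1 in 20 groups. Itga4, the integrin α4 chain that binds VCAM-1, had a log2 signal of 10.18 in PBS replicate 2, against 10.97 to 11.06 in the other 3 PBS samples, and that value lay within the SP range of 9.37 to 10.43. Vwf, von Willebrand factor of endothelium and platelets, had 8.30 in SP replicate 3, against 9.79 to 10.09 in the other 3 SP samples, and SP replicate 3 also had the lowest endothelial marker mean.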

How the results depend on the processing

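Icam1 kept its call under all 18 alternatives. With each sample left out in turn, differences ranged from 1.91 to 2.06 for Icam1, 1.91 to 2.49 for Sele, 0.60 to 1.30 for Selp, -1.48 to -1.11 for Icam2, -1.02 to -0.77 for F11r, 0.34 to 0.47 for Cd44, 0.43 to 0.57 for Cd47, -0.35 to -0.14 for Selplg, -0.059 to 0.16 for Itgb2 and -0.13 to 0.47 for Vwf, and list medians from -0.038 to 0.11 for ectodomain shedding (-0.0022 with all samples) and from -0.013 to 0.20 for hyaluronan. Cd44 lost its call without PBS replicate 1 and Selplg gained one without PBS replicate 2. The number of members called was 5 to 7.

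With arrays centred on their median the median of all rows moved by 0.28, and 14219 rows were called higher and 4036 lower, against 5306 and 5554. Selplg then turned to 0.048 (limma, adjusted p = 0.798), Selp was called at 1.30, 44 pathway genes were called higher, and Itgal turned to 0.054 and the shedding list to 0.28. Centring on neutrophil markers moved that median by 0.21 and gave 7785 higher and 3078 lower. Selp was then called at 1.23, F11r at -0.71 was not, 9 pathway genes were called lower and the shedding list was at 0.21. Another quantile normalization gave Selplg at -0.46, called, Cd44 at 0.16 and Cd47 at 0.26, not called, and Itgb2 at -0.12. Array weights gave Selplg at -0.33, called, Selp at 0.46 and Icam2 at -0.97, short of 2-fold (2 members called at 2-fold), Itgb2 at -0.038 and the shedding list at 0.082. They could not be fitted on the endothelial scale and were not run there. With dim rows left out the median of all rows moved by -0.26 and that of other vascular genes was -1.90. The replicate block, run although the numbers do not pair the samples, called Selp at 1.02 (limma, adjusted p = 0.0187) and changed no other member's call, with 9842 rows called. Tested by treat against 1 log2 unit, differences unchanged, Icam2 (-1.30), Cd44 (0.41), Cd47 (0.51), F11r (-0.92) and Sele (2.30) were not called, which left 1 member, also at 2-fold, and 3 pathway genes higher and 3 lower. Where no construction shows it, the cause of these changes was not tested. Signal near background limits Sele and Cemip in PBS samples, Fut7, Icam4 and Icam5 in both groups, and Chst4 in SP samples.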
